A study of Sus scrofa with 18 samples.

Results

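Complement is a set of plasma and cell surface proteins that tag, puncture or clear cells and debris, and 9 of its genes were followed here through the active-chromatin maps of pig uterine muscle. The genes were taken by name: C1QA, C1QB, C1R and C1S of the classical C1 complex, the convertase proteases C2 and CFB, the central component C3, and the regulators SERPING1 and CD59. All 9 were found by symbol among the 28210 RefSeq genes placed on the 18 autosomes, X and Y of Sscrofa11.1, and all 9 are among the 19550 protein-coding ones. For each gene, peaks were collected from 3 kb before to 3 kb after the gene, with an overlap of at least 1 bp.

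The maps cover H3K4me3, the histone mark of active promoters, and H3K27ac, which marks active promoters and enhancers. Tissue came from the mesometrial side of the uterus of Yorkshire gilts on day 15, in 3 groups: circular muscle of pregnant gilts (GD15M_CM), longitudinal muscle of pregnant gilts (GD15M_LM) and circular muscle of cyclic, non-pregnant gilts (CD15M_CM). Each group had 2 gilts per mark and its own IgG libraries, and the reads of both gilts were pooled before peaks were called, which gave 6 lists. The muscle layers were separated by hand from frozen uterus, so each list mixes every cell type of the layer. The lists hold no value per gilt, so they do not show how far gilts of a group differed, and no test was made for any difference given here. The study itself tested regions for differences between groups with the software DiffBind. Between pregnant and cyclic circular muscle it reported far fewer differing regions for H3K27ac than for H3K4me3. More cells carrying a mark and more mark per cell cannot be told apart in such tissue. Pig conceptuses are attaching to the uterus at about this stage of pregnancy, and the groups compare pregnant with cyclic circular muscle and, within pregnancy, circular with longitudinal muscle.

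Complement starts by several routes. In the classical pathway C1q, built from the products of C1QA, C1QB and C1QC, binds antibody or cell debris, and the proteases C1r and C1s that travel with it then cut C4 and C2. In the alternative pathway factor B, the product of CFB, joins activated C3. Both routes form an enzyme that cleaves C3, and CD59 and the C1 inhibitor SERPING1 hold the cascade in check, CD59 on the membrane of host cells and SERPING1 in solution. The liver supplies most circulating complement, whereas C1q comes largely from macrophages and fibroblasts are a known source of C1R and C1S. Where maternal and conceptus tissue meet, complement regulators are known to protect host cells.

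The C3 promoter is the region of these genes that the study cloned into a luciferase reporter. The study took its reporter regions from those that differed in H3K4me3, and reported raised activity for C3 in cultured cells. The primers of the C3 fragment are shown because they mark it. They are printed 5′ to 3′ with no base in capitals. Their place in the genome was not determined here.
C3 forward: tggaagactctggaagtggga
C3 reverse: ggcacgagatgctaggcac

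Fold enrichment, the height of a peak over the background that the peak caller estimates, is not on a common scale between lists. A peak is therefore given by its percentile, its rank by fold enrichment among all peaks of its own list, and a gene takes the highest percentile in its window, with 0 for no peak. An H3K4me3 peak lay in the window of 9 of 9 genes in GD15M_CM, GD15M_LM and CD15M_CM. Among all genes the shares were 60.0%, 61.0% and 61.7%, and among protein-coding genes 73.7%, 74.6% and 75.4%. A peak in all 3 lists was found at 72.0% of protein-coding genes. Over the 9 genes the median percentile was 58.3, 52.7 and 53.3 in the same order. Protein-coding genes with a peak had medians of 81.5, 80.2 and 82.5, so the complement genes were marked in all lists, with medians above the middle of each list and below that of marked protein-coding genes. CD59 in GD15M_CM was above the latter.

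H3K27ac was less regular. It was listed at 7 of 9 genes in GD15M_CM, 5 of 9 in GD15M_LM and 7 of 9 in CD15M_CM, against 62.9%, 61.3% and 64.9% of all genes and 73.9%, 73.1% and 75.8% of protein-coding genes. The lists hold 79877, 57010 and 82037 H3K27ac peaks in the same order. With the same number of top peaks kept in each, the counts were 5, 5 and 6. As listed, H3K27ac was present in all 3 lists at 5 of the 9, against 70.0% of protein-coding genes. C1QA and C1QB had none in any list. The highest value of all was CD59 in GD15M_CM, at the percentile 98.7.

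**Figure D1:**
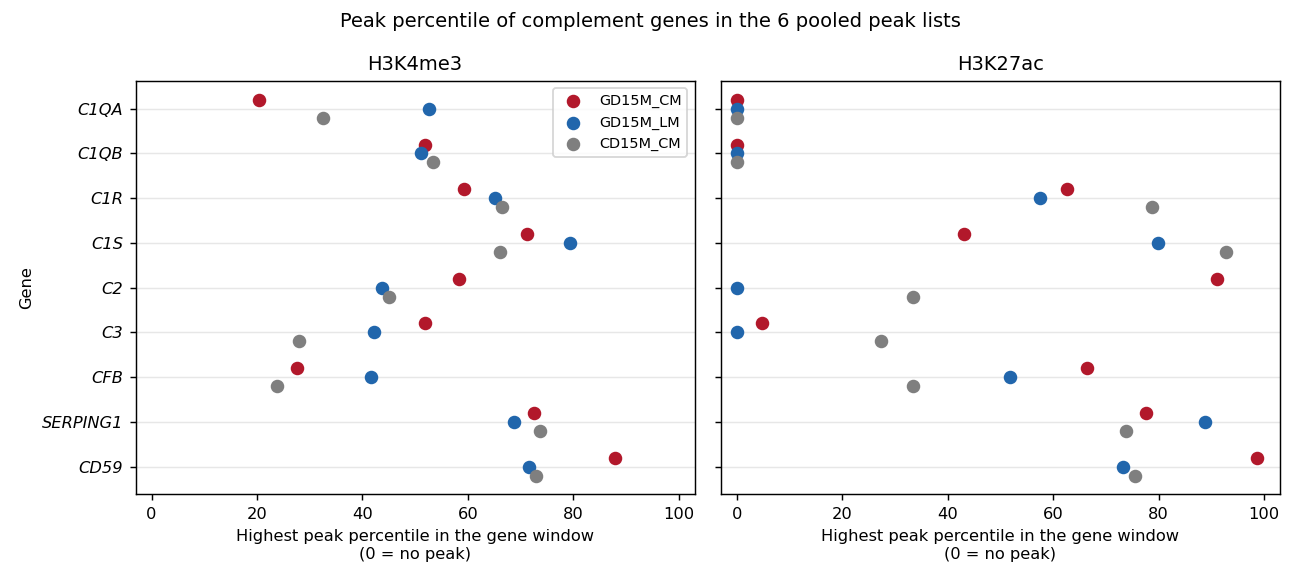
Highest peak percentile of each complement gene (x axis, 0 for no peak) in the H3K4me3 lists (left) and H3K27ac lists (right), with one point per pooled list and group. The H3K4me3 points lie between 20.4 and 88.0, while the H3K27ac points run from 0 at C1QA and C1QB to 98.7 at CD59 in GD15M_CM.

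Most of the genes were marked at 1 end only. The gene table used here carries no strand, so an end is called lower or upper by its coordinate and a start site cannot be told from a 3′ end. An H3K4me3 peak ran across the same single end in all 3 lists at 8 of the 9 genes, as it did at 50.3% of protein-coding genes. It was the lower end at C3, C1QA, C1QB, C1R, C2 and CD59 and the upper end at C1S and SERPING1. CFB had no H3K4me3 peak across either end. Among the 9840 protein-coding genes marked in this way, the peak across the end had a median percentile of 82.0 in GD15M_CM, 81.1 in GD15M_LM and 83.4 in CD15M_CM. Medians of the 8 complement genes were 58.8, 58.9 and 59.7, and 7, 8 and 8 of them lay below the median of those genes. Their peaks had median lengths of 2174, 2536 and 2062 bp, against 2537, 2700 and 2777 bp. For H3K27ac, 4 of the 9 genes (C1R, C1S, SERPING1 and CD59) had a peak across the same single end in all lists, against 39.7% of protein-coding genes.

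**Figure D2:**
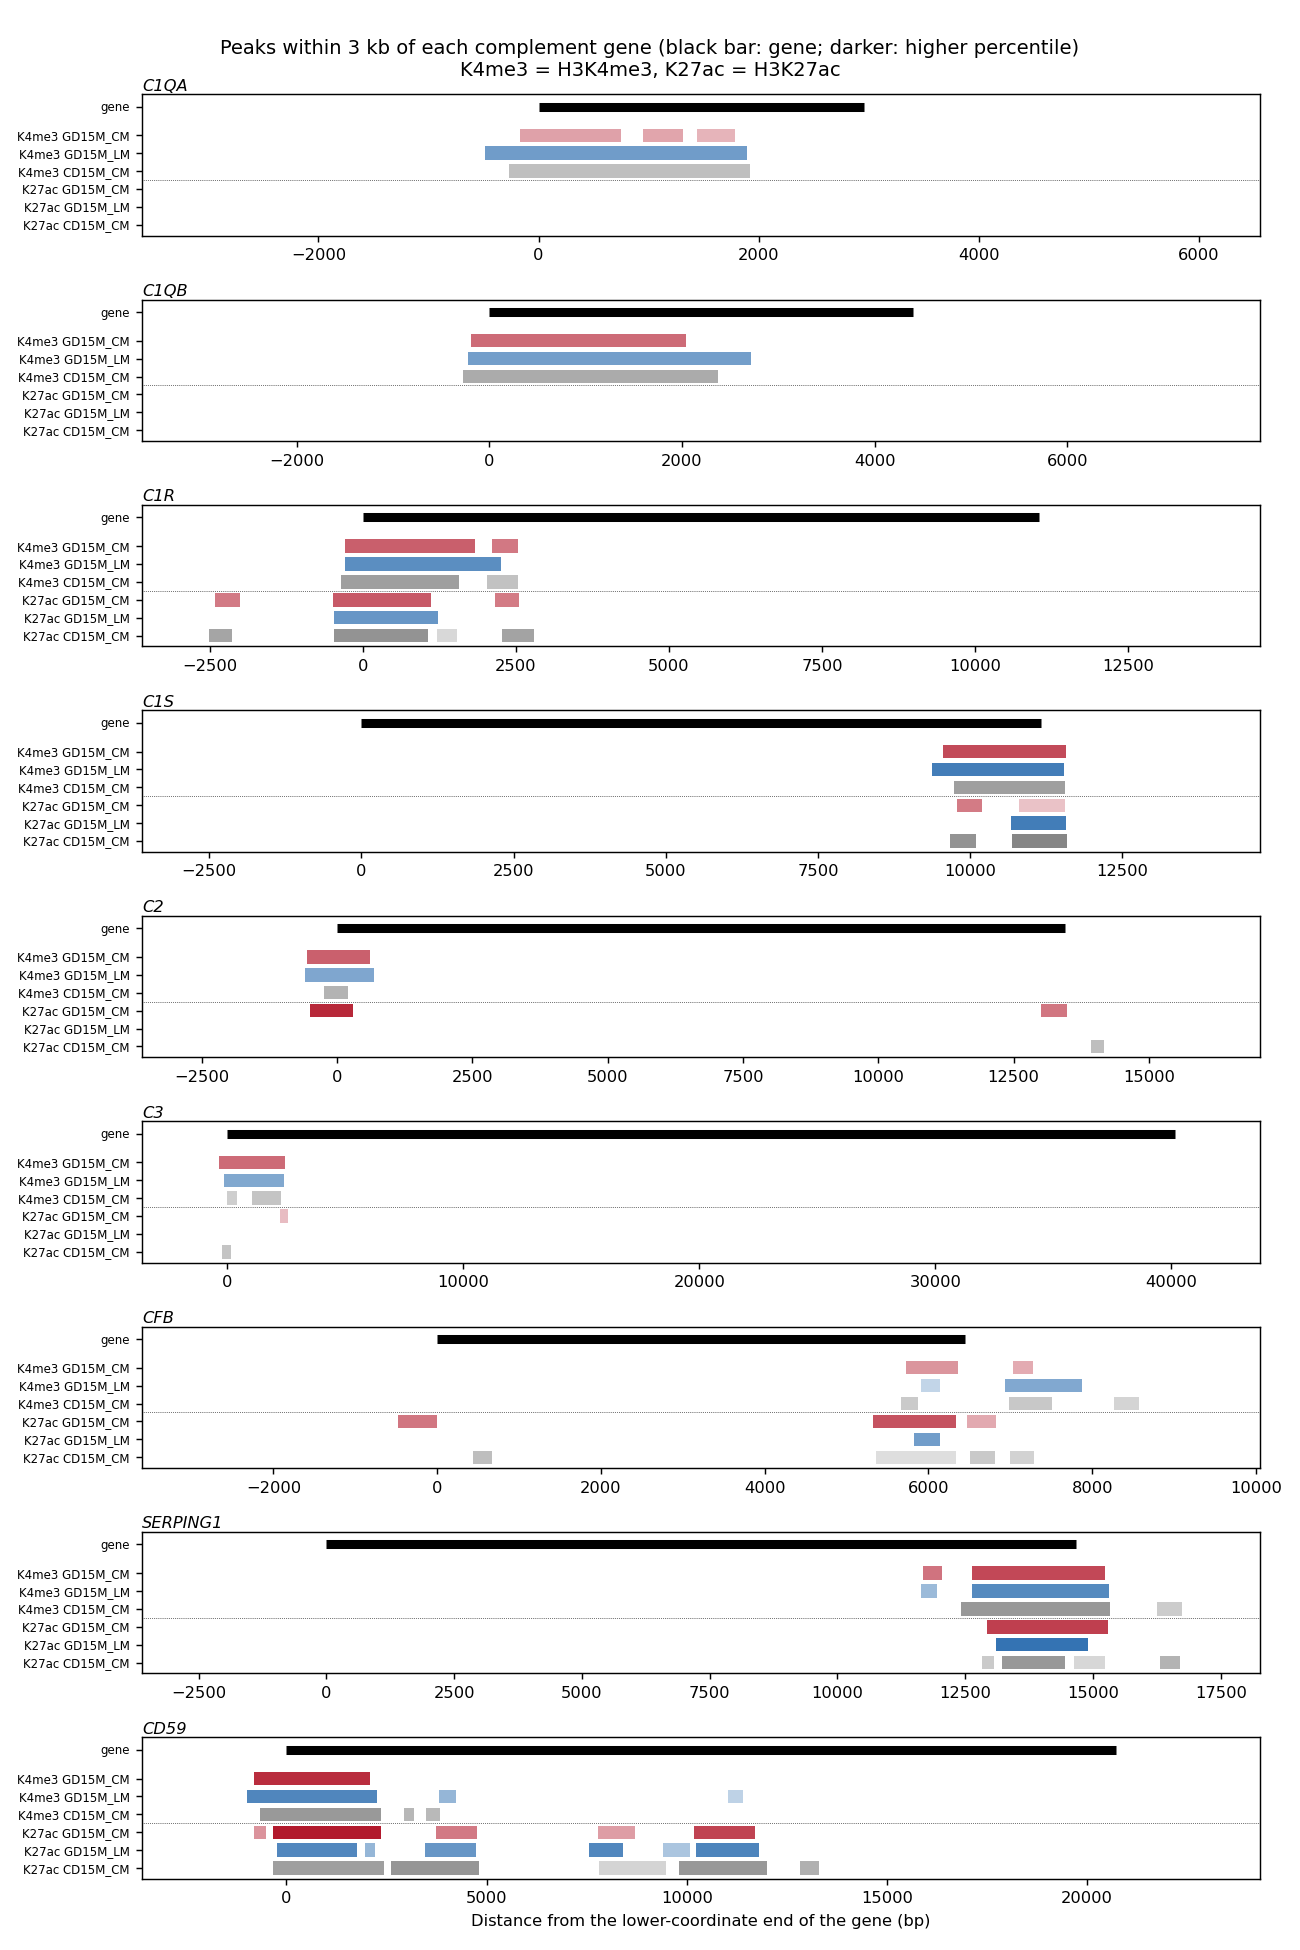
Peaks in the window of each complement gene, drawn to scale against the distance from the lower-coordinate end of the gene in bp, with the gene as a black bar and 1 row per mark and group. Darker bars have a higher percentile in their list. H3K4me3 covers the same end in all groups at 8 genes, and at CFB the H3K4me3 peaks lie toward or beyond the upper end.

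The C1q genes carried H3K4me3 without H3K27ac. C1QA, which encodes the A chain of C1q, lies on chromosome 6 from 80586259 to 80589213. Its percentile was 20.4 in GD15M_CM, 52.7 in GD15M_LM and 32.6 in CD15M_CM. Longitudinal muscle was thus the highest and pregnant circular muscle the lowest. In GD15M_LM the mark was a single peak of 2380 bp (80585771 to 80588150), 6.25-fold enriched, and in CD15M_CM a single peak of 2188 bp, 3.61-fold enriched. In GD15M_CM the same stretch was broken into 3 peaks that together covered 1636 bp, and all of this was also covered in the other lists.

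C1QB, the gene of the B chain, lies 12466 bp further on, from 80601680 to 80606076. Its H3K4me3 percentiles were 51.8 in GD15M_CM, 51.1 in GD15M_LM and 53.3 in CD15M_CM, so the 3 lists lay close together. The peak was 2224, 2932 and 2652 bp long and crossed the lower end each time. C1QC, which lies between C1QA and C1QB and encodes the third chain, had 42.6, 63.8 and 57.6 for H3K4me3 and also no H3K27ac peak in any list. Lack of H3K27ac in all lists was seen at 1.62% of the 14077 protein-coding genes with H3K4me3 in all lists, and among the 9 complement genes at C1QA and C1QB. Of 10 macrophage marker genes, 4 had no H3K27ac in any list: MRC1, with H3K4me3 in 3 lists, CD163, with H3K4me3 in all but GD15M_CM, and LYZ and MARCO, which had neither mark. The other 6 had H3K27ac in every list, with percentiles of up to 98.8 in GD15M_CM, so most of these markers did not share the C1q pattern. Macrophage genes had H3K4me3 at 7 of 10 in GD15M_CM and 8 of 10 in each other list. They were lower in GD15M_CM than in CD15M_CM at 3 and higher at 0 (median -5.29 points), and against GD15M_LM lower at 2 and higher at 1 (median -2.96). The part of macrophage number in the C1QA values was not tested.

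The proteases of C1 were marked more strongly, with both marks in all lists. C1R (chromosome 5, 63644097 to 63655149) had H3K4me3 percentiles of 59.3 in GD15M_CM, 65.2 in GD15M_LM and 66.4 in CD15M_CM. Its H3K27ac percentiles were 62.5, 57.4 and 78.7. Both marks ran across the lower end, and 59.7% to 82.2% of the H3K4me3 bases in the window were also under an H3K27ac peak. A separate H3K27ac peak about 2 kb outside the lower end was listed in both circular muscle lists, at percentiles of 43.6 in GD15M_CM and 60.1 in CD15M_CM, and not in GD15M_LM.

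C1S, the protease that C1r activates, lies 15159 bp from C1R (63670309 to 63681466) and was marked at its upper end. The H3K4me3 percentile was 71.1 in GD15M_CM, 79.5 in GD15M_LM and 66.1 in CD15M_CM. For H3K27ac it was 43.0, 79.9 and 92.9, with pregnant circular muscle far below the other lists. The value in GD15M_CM came from a peak inside the gene. The H3K27ac peak across the upper end itself was 2.22-fold enriched there and ranked at 1.93, while it was 5.20-fold enriched in GD15M_LM (79.9) and 5.79-fold in CD15M_CM (92.9). Its length was similar, 760, 897 and 902 bp.

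C2 and CFB encode paralogous proteases and lie in the class III region of the major histocompatibility complex, 34 bp apart. C2, which provides the catalytic part of the classical convertase, runs from 24020590 to 24034042 on chromosome 7. Its H3K4me3 percentile was 58.3 in GD15M_CM, 43.8 in GD15M_LM and 45.1 in CD15M_CM. Its length was 1165 and 1261 bp in the pregnant lists and 444 bp in the cyclic list, where the peak covered only the middle of the same stretch.

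At C2 the marks parted by group. In GD15M_CM an H3K27ac peak of 797 bp lay across the lower end, 5.51-fold enriched and at the percentile 91.1. No H3K27ac peak was listed there in GD15M_LM or CD15M_CM. The next gene on that side, ZBTB12, ends 21455 bp away. Of protein-coding genes, 2.11% had an H3K27ac peak across a gene end in GD15M_CM only, and C2 was the 1 member among them. The window of C2 also took in a second GD15M_CM peak, across its upper end at the border with CFB (percentile 45.5), and in CD15M_CM a peak inside CFB (33.3), which is the source of the C2 value in that list.

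CFB, factor B of the alternative pathway, runs from 24034077 to 24040523 and ends 1 bp before NELFE, a gene of transcription pausing. Its H3K4me3 percentiles were 27.7 in GD15M_CM, 41.7 in GD15M_LM and 23.9 in CD15M_CM. These values were all low, and the highest GD15M_LM and CD15M_CM peaks lay beyond the upper end of CFB, inside NELFE. Counting a peak only for the protein-coding gene nearest to its middle turned the difference between GD15M_CM and GD15M_LM from -14.1 to 24.7 points. For H3K27ac the percentiles were 66.4, 51.8 and 33.3. The strongest GD15M_CM peak (1013 bp, percentile 66.4) lay inside the gene near its upper end. At the same place CD15M_CM had a peak of 976 bp at percentile 0.422 and GD15M_LM one of 314 bp at 51.8. On the side toward C2, the border peak of GD15M_CM ended just short of CFB and is counted for both genes.

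C3, the protein on which all routes converge, is the longest of the genes, from 72431470 to 72471622 on chromosome 2. The H3K4me3 percentile was 51.9 in GD15M_CM, 42.2 in GD15M_LM and 27.9 in CD15M_CM, from fold enrichments of 5.03, 4.68 and 3.47. Both pregnant lists had a single peak over the lower end, of 2785 bp in GD15M_CM (72431133 to 72433917) and 2516 bp in GD15M_LM. In CD15M_CM the same stretch held 2 peaks of 426 and 1236 bp, and all of their bases were also covered in GD15M_CM. The remaining length of the gene carried no H3K4me3 peak in any list.

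H3K27ac at C3 was a short peak or none. The percentile was 4.82 in GD15M_CM, 0 in GD15M_LM and 27.4 in CD15M_CM, from single peaks of 315 and 382 bp that shared no base. H3K4me3 bases were under an H3K27ac peak for 7.32% of their length in GD15M_CM and 9.09% in CD15M_CM. The ranking of groups at C3 thus differed between the marks, but its H3K27ac side rests on these short peaks. Their −log10 p was 3.29 in GD15M_CM and 4.24 in CD15M_CM. Neither was left with the same number of top peaks per list or under the strict threshold.

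Both regulators were among the 3 highest H3K4me3 percentiles of the 9 genes in every list. SERPING1 encodes the inhibitor of C1r and C1s and lies on chromosome 2 from 13324160 to 13338826. Its H3K4me3 percentiles were 72.5 in GD15M_CM, 68.8 in GD15M_LM and 73.8 in CD15M_CM. Its peak over the upper end was 2607, 2687 and 2903 bp long, with fold enrichments of 12.2, 14.0 and 14.9. The H3K27ac percentiles were 77.7, 88.9 and 73.9. In GD15M_CM and GD15M_LM this mark was 1 peak across the upper end, and in CD15M_CM the same stretch was broken into 3 peaks, with a further one beyond it.

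CD59, which blocks the last step of the membrane attack complex, lies on the same chromosome from 27186587 to 27207303. Its H3K4me3 percentile was 88.0 in GD15M_CM, 71.6 in GD15M_LM and 73.0 in CD15M_CM. For H3K27ac it was 98.7, 73.2 and 75.6, so pregnant circular muscle was highest for both marks. The H3K27ac peak over the lower end was 7.88-fold enriched in GD15M_CM, 4.60-fold in GD15M_LM and 3.95-fold in CD15M_CM. It ranked at 98.7, 70.6 and 65.8, and the values of 73.2 and 75.6 came from other peaks inside the gene.

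CD59 was also the gene with the most H3K27ac outside its marked end. In GD15M_CM 5 peaks covered 6452 bp of the window, in GD15M_LM 6 peaks covered 6599 bp and in CD15M_CM 5 peaks covered 9307 bp. A peak inside the gene about 10 kb from the lower end had a percentile of 75.7 in GD15M_CM, 73.2 in GD15M_LM and 73.2 in CD15M_CM. A long non-coding RNA gene, LOC106509385 (27198910 to 27218248), overlaps the upper part of CD59, and 1 H3K27ac peak of CD15M_CM (percentile 48.7) lies in the stretch they share. The group with the highest peak at CD59 was therefore not the group with the most covered bases.

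To compare the lists, a gene was counted as higher or lower when its percentile differed by at least 10 points. Both comparisons share the GD15M_CM list. In pregnant against cyclic circular muscle, H3K4me3 was higher in GD15M_CM at 3 of the 9 genes, against 12.4% of the 17645 genes with a peak in either list and 7.78% of all genes. They were C3 (24.0 points), CD59 (15.0) and C2 (13.3). The study had already picked C3 for its reporter from regions that differed in H3K4me3. H3K4me3 was lower at 1 gene, C1QA (-12.1), against 23.9% and 14.9%. Among genes with a peak in either list, 8.29% differed by as much as C3 or more in either direction. The median difference was 3.80 points over the complement genes and -2.13 over those genes. The call at C3 was lost under the strict peak threshold (0.425 points), where GD15M_CM kept a peak of very low rank and CD15M_CM kept none. That at C2 was lost when nearby peaks were joined (8.97) and that at CD59 when peaks were ranked by −log10 p (8.32). The call at C1QA was lost under 4 of 8 alternatives.

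For H3K27ac in the same comparison, 7 of the 9 genes had a peak in either list. GD15M_CM was higher at 3 of these, C2 (57.8 points), CFB (33.1) and CD59 (23.1), against 25.5% of genes with a peak and 17.2% of all genes. It was lower at 3, C1S (-49.8), C3 (-22.6) and C1R (-16.1), against 27.4% and 18.5%. A difference as large as at C2 was found at 6.58% of genes with a peak, and as large as at C1S at 9.56%. For CFB and CD59 these shares were 19.4% and 28.9%. The cyclic values of C2 and CFB came from the same peak inside CFB, so the calls at these neighbours are not separate. The calls at C3, C1R and CFB were lost under the strict threshold, which left these genes no H3K27ac peak in either list. Each difference of 0 there compares no peak with no peak. The call at C1R was also lost when peaks were ranked by −log10 p (-5.85). Keeping the same number of top peaks left C3 no H3K27ac peak in either list, and its call was lost there too. In circular muscle C2 and CD59 were higher in the pregnant list for both marks. For H3K4me3, pregnant longitudinal and cyclic circular muscle lay close together, at 43.8 and 45.1 for C2 and 71.6 and 73.0 for CD59. For H3K27ac they also lay close at CD59, at 73.2 and 75.6, but from different peaks inside the gene. Across its lower end the peaks ranked at 70.6 and 65.8. C2 was at 0 and 33.3, the latter from the peak inside CFB. In circular muscle C3 was higher for H3K4me3 and lower for H3K27ac, the latter from short peaks and lost under 2 of 8 alternatives.

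Between the layers of pregnant gilts, H3K4me3 was higher in GD15M_CM at 2 of the 9 genes, CD59 (16.4 points) and C2 (14.6), against 20.9% of the 17636 genes with a peak in either list and 13.1% of all genes. It was lower at 2, C1QA (-32.2) and CFB (-14.1), against 20.2% and 12.6%. These shares are near those of genes in general. C3 differed by 9.65 points, just inside the limit of 10. The difference at C1QA was reached in size by 6.19% of genes. Ranked by −log10 p, the differences of C2 (6.47), CD59 (7.62) and C1QA (-9.55) fell short of 10 points. Under the strict threshold those of C1QA (-9.02) and of CFB (0, with no peak in either list) did so.

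For H3K27ac between the layers, GD15M_CM was higher at 3 genes, C2 (91.1 points), CD59 (25.5) and CFB (14.6), against 33.8% of genes with a peak and 22.2% of all genes. It was lower at 2, C1S (-36.8) and SERPING1 (-11.2, just past the limit), against 22.5% and 14.8%. The difference at C2, between a peak at 91.1 and none, was reached by 0.382% of the 18567 genes with a peak in either list. Those at CD59 and CFB were reached in size by 28.5% and 45.4%. Under the strict threshold, calls were lost at C1S (-7.85), where only GD15M_LM kept a peak, and at CFB (0), where neither list did. The call at SERPING1 (-5.56) was lost when peaks were ranked by −log10 p. That at CFB was also lost with the same number of top peaks (1.14). The median difference was 5.12 points over the 7 complement genes with a peak and 2.30 over all genes with one.

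**Figure D3:**
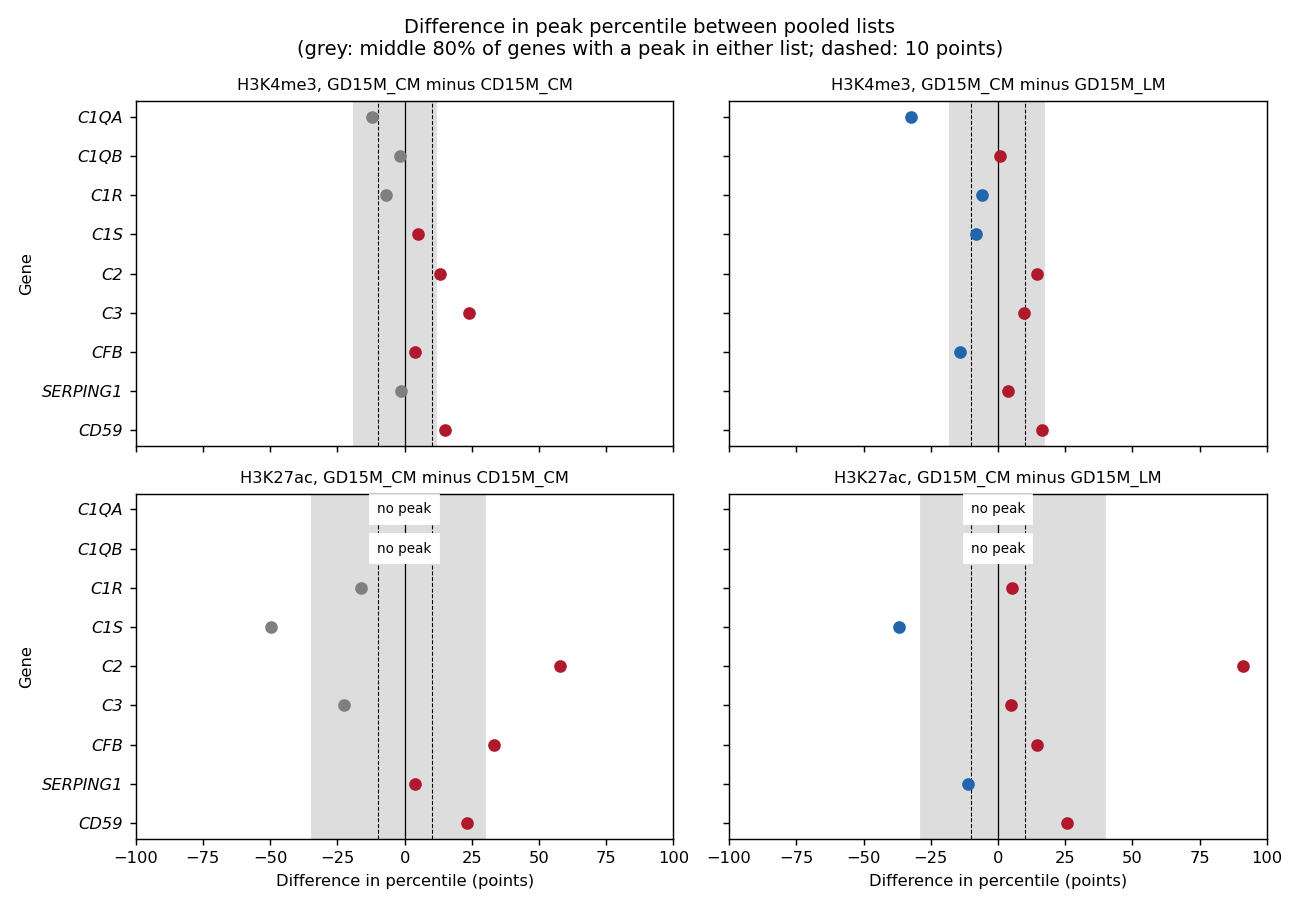
Difference in percentile, in points, of each complement gene for both marks (rows) and both comparisons (columns), where points right of 0 are higher in GD15M_CM. Grey shows the middle 80% of genes with a peak in either list and dashed lines mark 10 points. C2 lies outside the grey band for H3K27ac in both comparisons, at 57.8 and 91.1 points, and C1S outside it on the other side, at -49.8 and -36.8.

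The rest of the pathway was read from a list of 39 further complement genes, of which 35 could be placed. Peaks of either mark were lacking in all lists at 9 of them: the terminal components C5, C7, C8A, C8B and C9, the lectin pathway genes MASP1, MBL2 and FCN2, and C4BPB. H3K4me3 was listed at 20 of the 35 in GD15M_CM, 21 in GD15M_LM and 20 in CD15M_CM, and H3K27ac at 19, 18 and 21. Shares of all protein-coding genes were 73.7% to 75.4% for H3K4me3 and 73.1% to 75.8% for H3K27ac. Of the 20 with H3K4me3 in either circular muscle list, GD15M_CM was higher at 2 (10%) and lower at 6 (30%), against 12.4% and 23.9% of all genes with a peak. The highest differences were ITGAX (16.9 points, annotated as lncRNA in the gene table), C4A (11.4) and CLU (5.25). The lowest were CPN1 (-27.4), the complement receptor CR1 (-23.3), properdin CFP (-22.6) and the C5a receptor C5AR1 (-18.5).

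For H3K27ac in the same comparison, GD15M_CM was lower at 14 of 22 genes (63.6%, against 27.4% of all genes with a peak) and higher at 5 (22.7%, against 25.5%), with a median of -13.0 points. The lowest differences were C5AR1 (-64.9), MASP2 (-62.5), factor D CFD (-36.9) and C1QBP (-33.9), and the highest ITGAX (59.3), C5AR2 (45.3), CPN1 (26.8) and ITGAM (17.7).

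Between the layers, H3K4me3 was higher in GD15M_CM at 3 of 22 listed genes (13.6%, against 20.9% of all genes with a peak) and lower at 7 (31.8%, against 20.2%). VSIG4 (-49.6 points) and the C3a receptor C3AR1 (-45.4) had an H3K4me3 peak in the longitudinal list alone, followed by C1QC (-21.2) and CR1 (-20.3). On the other side were CPN1 (42.6), CLU (28.0), CFP (19.6) and CFI (6.94). For H3K27ac, 9 of 22 were higher in GD15M_CM (40.9%, against 33.8%) and 3 lower (13.6%, against 22.5%). CPN1 (82.5), ITGAM (71.1), ITGAX (59.3) and COLEC10 (55.1) led the first group, and C1QBP (-33.5), CD93 (-27.6), CFD (-17.0) and C5AR1 (-9.87) had the lowest values.

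The muscle label was checked against 10 smooth muscle genes, which had both marks in every list, with H3K4me3 percentiles of 68.2 to 98.5. Their H3K4me3 medians were 77.8 in GD15M_CM, 90.1 in GD15M_LM and 87.3 in CD15M_CM, against 81.5, 80.2 and 82.5 for marked protein-coding genes. In GD15M_CM the median was also below that of the uterine epithelium markers (79.4). The smooth muscle genes were lower in GD15M_CM at 5 and higher at 1 against CD15M_CM, and lower at 4 and higher at 0 against GD15M_LM. For H3K27ac the counts were 4 lower and 0 higher, and 4 lower and 2 higher. Markers of other cells moved with some comparisons. All 7 uterine epithelium markers were higher in GD15M_CM than in GD15M_LM for H3K4me3 (median 22.5 points) and 6 of 7 for H3K27ac (55.1), with percentiles of 47.3 to 81.6 in GD15M_CM and 0 to 59.4 in GD15M_LM for H3K4me3. ELF3 was at 0 for H3K4me3, and KRT18 and KRT19 for H3K27ac, in GD15M_LM. The higher values of C2, CD59 and, for H3K27ac, CFB in the circular layer stood beside this, and the part of epithelium in them was not tested. Against CD15M_CM, epithelial H3K4me3 was higher at 1 and lower at 1 of 7, with medians of 79.4 in GD15M_CM and 78.5 in CD15M_CM. Epithelial H3K27ac was higher at 3 and lower at 1 of 7 against CD15M_CM (median 3.04 points), beside the higher H3K27ac values of C2, CFB and CD59, and its part in them was not tested.

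For H3K27ac, 2 macrophage genes were higher in GD15M_CM and 1 lower against CD15M_CM, and 3 and 1 against GD15M_LM. Of 5 placed T cell genes, 3 were higher in GD15M_CM than in CD15M_CM for H3K4me3 (median 15.1 points) and 0 were lower, and against GD15M_LM 2 were higher and 0 lower. Of the 3 with H3K27ac, 2 were higher against CD15M_CM and 1 against GD15M_LM, with 0 lower.

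Fibroblast genes had H3K4me3 at 8 of 8 in every list, with 1 higher and 1 lower in GD15M_CM than in CD15M_CM and 0 and 3 against GD15M_LM. For H3K27ac the counts were 2 and 2, and 0 and 1. Endothelial genes, 7 of 7 with H3K4me3 throughout, gave 0 higher and 1 lower against CD15M_CM and 1 and 1 against GD15M_LM. For H3K27ac they gave 1 and 1, and 3 and 1. Of the 5 hepatocyte genes, ALB, TTR, SERPINA1 and FGB had no peak in any list, and APOA1 had one in each. The parts of these cell types in the complement values were not tested.

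**Figure D4:**
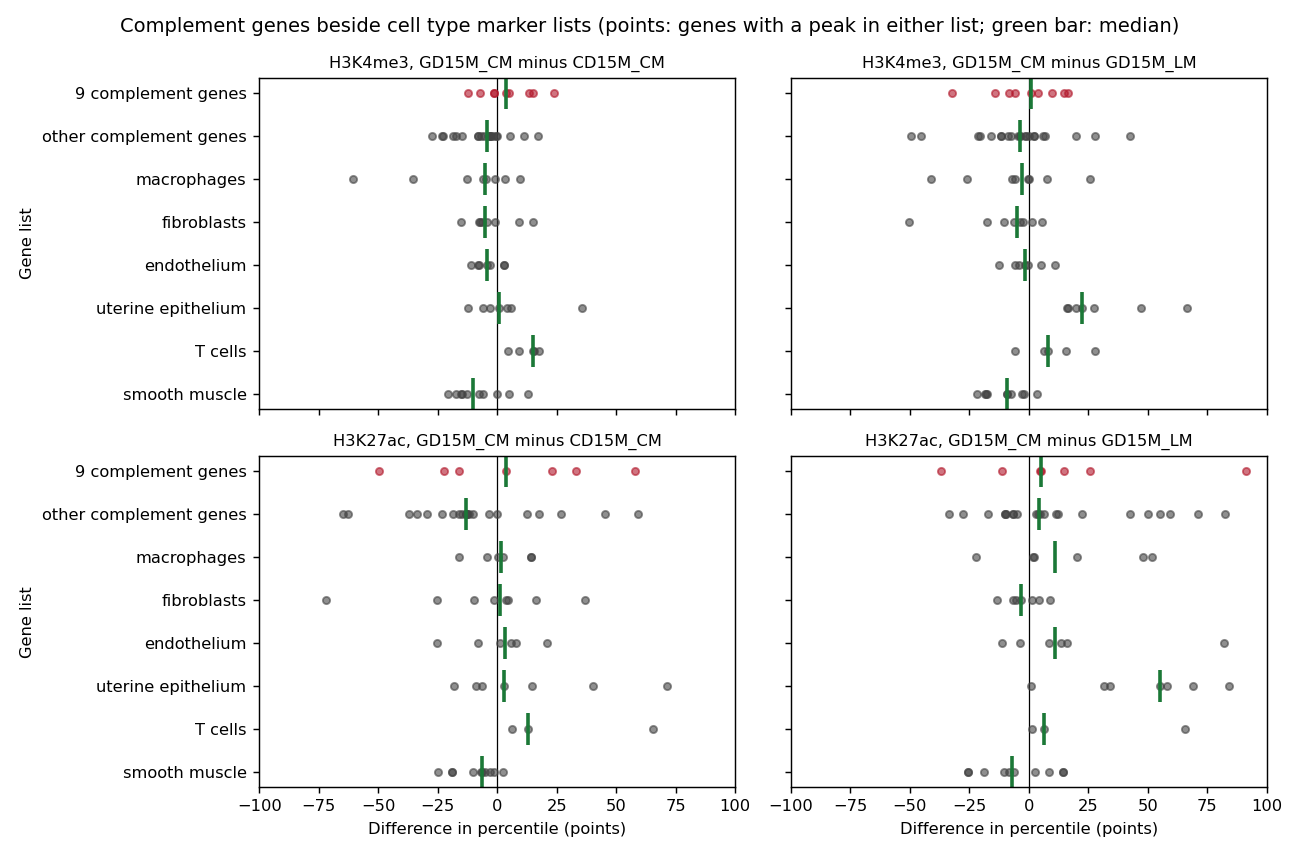
Difference in percentile, in points, of the complement genes, the other complement genes and 6 cell type marker lists (rows), for both marks and both comparisons. Each point is a gene with a peak in either list and green bars are medians. The epithelial medians lie at 22.5 and 55.1 points between the layers, and the complement genes spread to both sides of 0 in all panels.

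The genes whose 6 percentiles lay nearest to those of a complement gene were sought over all protein-coding genes, by Euclidean distance in points. For C3 they were NOL4 (16.2), HACD4 (16.4) and GJA5 (23.6). C1QA was nearest to TLR8 (6.14), while CD59 was nearest to SMYD4 (4.62), SERPING1 to CAMK2A (6.94), C1R to RADIL (8.55) and C1S to HSPB9 (10.0). C2 and CFB had more distant neighbours, MGST2 (19.5) and LOC100513976 (24.1). The measure rests on 6 pooled values and describes only their likeness.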

How the data were processed

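The 18 libraries (both marks and IgG, 2 gilts per group) were assigned from their titles. Per the study's methods, the authors mapped CUT&Tag reads to Sus scrofa 11.1 with BWA 0.7.17-r1188, removed duplicates and reads with MAPQ under 25 with SAMtools 1.9 and Picard 2.8.3, pooled both gilts and called peaks with MACS2 2.2.6. The deposited lists give each peak's fold enrichment, a ratio of its height to the background MACS2 estimates, and −log10 p as deposited. Whether IgG served as the control in peak calling is not given in the sources used here. The header of the −log10 p column is unreadable, and the column was identified by its values in a supplementary peak table. A further column with an unreadable header was not used. Read depth is not in the lists, so no interval was computed.

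Genes came from the RefSeq table of Sscrofa11.1, which has no strand. Peak percentiles, coverage and list comparisons were computed with Python 3.11.15, pandas 2.3.3 and NumPy 2.4.6, and the overlap code was tested on simulated data. Named genes are the 9 members, the 4 listed pathway genes of largest difference in each direction, marker genes at 0, window neighbours and nearest patterns, of which that of C1QB is not reported here. MRC1 and CD163 were named after their values were seen. The members and lists were chosen with earlier results of these data known.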

Additional observations from a re-analysis of the deposited data

How the results depend on the processing

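No paired analysis was possible because the peaks were called on both gilts together, so no result comes from a test and no replicate could be left out. The window around the gene start alone could not be run without strand. The strict threshold kept peaks with −log10 p from 10 and fold enrichment from 5 upward. Under it H3K4me3 was listed at 7 genes in GD15M_CM, 6 in GD15M_LM and 5 in CD15M_CM. H3K27ac was listed at 2 in GD15M_CM, 2 in GD15M_LM and 1 in CD15M_CM. This threshold also left 1 gene lower for H3K27ac in each comparison. Ranking by −log10 p gave 0 genes lower than CD15M_CM, 0 higher and 1 lower than GD15M_LM for H3K4me3, and 1 lower than GD15M_LM for H3K27ac. Keeping the same number of top peaks in every list of a mark gave 0 lower than CD15M_CM for H3K4me3. It left H3K27ac at 5 genes in GD15M_CM, 5 in GD15M_LM and 6 in CD15M_CM. Joining peaks less than 1 kb apart gave 4 lower than GD15M_LM for H3K4me3. The following were chosen after seeing the data. Counting a peak for the nearest protein-coding gene gave 1 lower than GD15M_LM for H3K4me3 and turned CFB there to 24.7 points. A limit of 5 points gave 2 lower than CD15M_CM and 4 lower than GD15M_LM for H3K4me3. A limit of 20 points gave 1 higher and 0 lower than CD15M_CM, 0 higher and 1 lower than GD15M_LM for H3K4me3, and 1 lower than GD15M_LM for H3K27ac. Of 19 differences of at least 10 points, 5 stayed at 10 points or more in the same direction in all 8 alternatives: the H3K27ac differences of C2 and CD59 in both comparisons and of C1S against CD15M_CM. Some of the 8 changed no call at any gene: a window of 1 kb, placing a peak by its middle, and ranking only among peaks near genes.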
